A study of Mus musculus with 8 samples.

Results

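The 9 genes described here encode FOXO transcription factors, products of FOXO target genes, and inhibitors of PI3K and mTOR signalling. They are Foxo1, Foxo3, Pik3ip1, Tsc1, Sesn1, Sesn3, Txnip, Eif4ebp1 and Eif4ebp2, chosen by name from the 38215 genes listed in the tables. RNAseq compared FoxP3+ Treg sorted from the bone marrow (BM-Treg, 4 libraries) with FoxP3+ Treg sorted from the spleen (SP-Treg, 4 libraries). The study describes the source of both as untreated 12-week-old B6.FoxP3-GFP mice, a strain with a fluorescent reporter for FoxP3, while the sample labels give the genotype as C57Bl/6. By the labels, 3 of the BM-Treg libraries (replicates 1 to 3) form batch 1 and are from females. All SP-Treg libraries, together with replicate 4 of BM-Treg, form batch 3 and are from males, whereas the methods state in general that female mice were used unless noted, a conflict that was not resolved. As labelled, batch and sex cannot be told apart from each other, and 1 BM-Treg library shares the batch of the spleen. The methods call the libraries biological replicates. The names of the SP-Treg libraries carry number ranges that overlap, the labels do not say what these stand for, and p-values measure only the spread between these libraries. The question was how Treg of the marrow differ from splenic Treg, and here it is asked of the genes that restrain growth signalling.

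In T cells, PI3K is activated by antigen receptor, CD28 and cytokine signals, and through AKT it drives FOXO factors out of the nucleus and switches off the TSC complex, which otherwise holds mTORC1 inactive. FOXO factors that stay in the nucleus switch on genes of lymphocyte homing, survival and metabolic restraint, and FOXO1 and FOXO3 are known to be needed for Treg development and function. Active mTORC1 promotes cap-dependent translation by phosphorylating the 4E-BP proteins, which in their unphosphorylated form bind the cap-binding protein eIF4E. RNA levels do not report these phosphorylation steps.

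The summed expected counts of a library ran from 12427136 to 21921252, and 13397 genes were tested. Levels are given as CPM (counts scaled to library size, with TMM factors), and a gene was called where edgeR's quasi-likelihood test gave a Benjamini-Hochberg adjusted p under 0.05 over all tested genes. Summed CPM of 9 Treg and T cell markers, Foxp3 among them, ranged from 7577 to 9191 in BM-Treg and from 8374 to 9112 in SP-Treg. The summed CPM of 6 erythroid markers ranged from 12.4 to 32.7 in BM-Treg, and was 1.81, 186, 448 and 287 in SP-Treg replicates 1 to 4. For 5 B cell markers the sum was 11.04 to 14.0 in BM-Treg and 6.36, 94.4, 19.8 and 15.4 in SP-Treg, and for 2 CD8 T cell markers it was 10.9 to 12.4 and 13.3 to 40.7. The CD8 T cell sum was the one marker sum of 8 whose ranges did not overlap. Of its genes, Cd8b1 overlapped (10.1 to 11.5 CPM in BM-Treg, 10.4 to 19.8 in SP-Treg), and Cd8a did not (0.839 to 1.72 and 1.81 to 20.9). Sums of plasma cell, neutrophil, macrophage and pDC markers overlapped between the tissues. The plasma cell sum was mostly Xbp1 (50.8 to 76.2 CPM in BM-Treg, 61.8 to 66.7 in SP-Treg). Within that list Jchain was 0 to 0.405 in BM-Treg and 0.217, 24.4, 8.85 and 5.58 in SP-Treg replicates 1 to 4. Sdc1 was low and did not overlap (0 to 0.0932 and 0.362 to 0.580), while Mzb1 overlapped. The pDC sum was mostly Ccr9 (29.1 to 39.8 and 8.82 to 41.3). In sorted bulk samples, fewer cells of a type and less RNA per cell cannot be told apart.

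Among the 9 genes, 2 were called, Sesn1 and Eif4ebp2, and both were higher in BM-Treg. The remaining 7 did not pass the test. Of all tested genes, 8.75% were called, 3.72% higher and 5.02% lower in BM-Treg. Of the same 13397 genes, edgeR called 1172, DESeq2 1703 and limma-voom 1210. No gene of the 9 was called lower by edgeR (0 of 9). At an unadjusted edgeR p under 0.05, 5 of the 9 were higher in BM-Treg and 1, Sesn3, was lower. Limma-voom called 2 higher and 0 lower, and DESeq2 called 3 higher and 1 lower, again Sesn3. The share of all tested genes at an unadjusted p under 0.05 is not given here. Counts of genes at that cut-off, here and below, therefore have no background beside them. All 9 genes passed the filter on low counts. The median log2 fold change (BM-Treg minus SP-Treg) of the 9 genes was 0.30, against -0.01 over all tested genes, and 7 of the 9 values were above 0. CPM did not overlap between the tissues for 3 of the 9 genes, Sesn1, Eif4ebp1 and Eif4ebp2, against 15.9% of all tested genes.

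**Figure D1:**
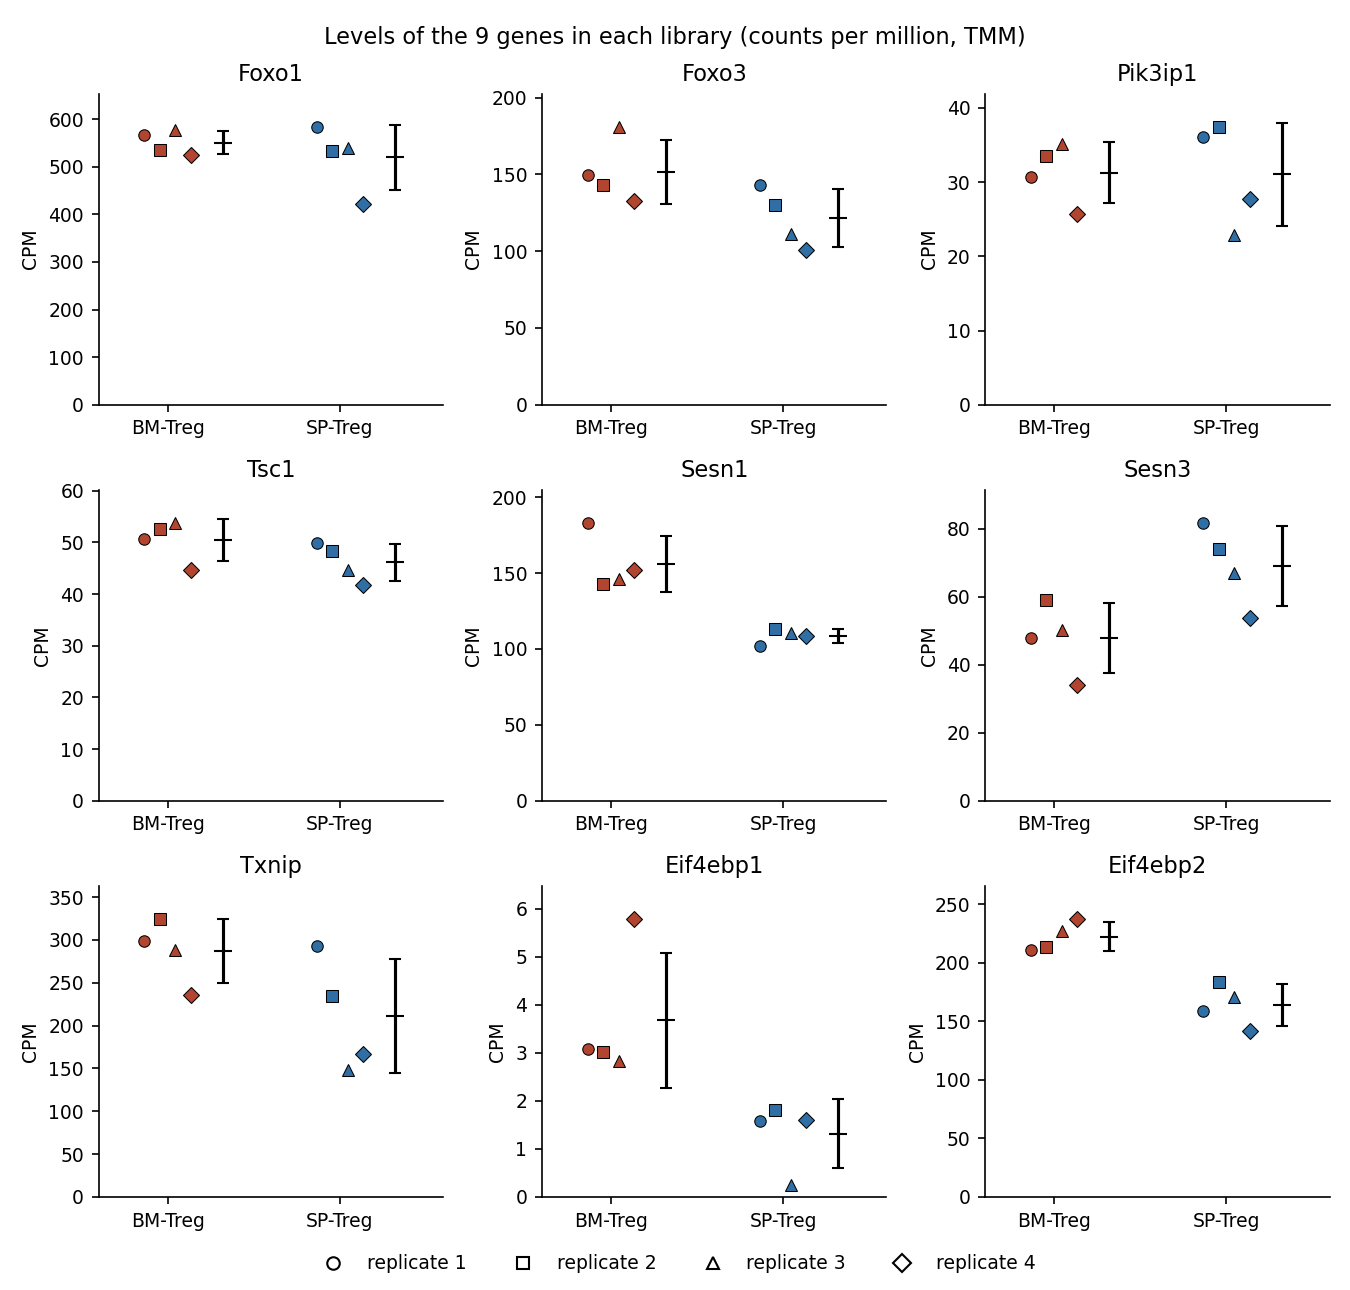
CPM (y axis, linear from 0) of each of the 9 genes in 4 BM-Treg (red) and 4 SP-Treg (blue) libraries; marker shapes give the replicate number, which does not pair libraries across tissues, and the bars at the side of each group show mean ± SD. The BM-Treg points lie above every SP-Treg point for Sesn1, Eif4ebp1 and Eif4ebp2, and the groups overlap for the other 6 genes.

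Foxo1, on chromosome 3 (GRCm38, chr3:52268337-52350109), encodes the main FOXO factor of T cells. Its CPM in replicates 1 to 4 was 567, 534, 576 and 525 in BM-Treg and 584, 534, 539 and 421 in SP-Treg. The ranges overlapped, with SP-Treg replicates 1 and 4 at the top and the bottom of all 8 libraries. Between the tissues the log2 fold change was 0.07 (SE 0.11, 95% CI -0.17 to 0.30, edgeR adjusted p = 0.766). Foxo3, on chromosome 10 (chr10:42181841-42276755), encodes a second FOXO factor with overlapping targets. Its CPM was 149.6, 143, 181 and 133 in BM-Treg and 143, 130.3, 111 and 101 in SP-Treg, where 3 SP-Treg libraries lay below the BM-Treg range. The log2 fold change of Foxo3 was 0.30 (SE 0.12, 95% CI 0.04 to 0.56, edgeR adjusted p = 0.146), and in none of 17 alternative settings was it called.

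Measured per transcript length, as FPKM, Foxo1 stood at 102 ± 7.53 in BM-Treg and 93.5 ± 15.9 in SP-Treg, and Foxo3 at 29.4 ± 4.15 and 20.4 ± 3.69 (mean ± SD, n = 4). On this scale, unlike in CPM, every BM-Treg library lay above every SP-Treg library for Foxo3. FPKM depends on how counts are divided between transcripts of unlike length. The Foxo3 transcript ENSMUST00000056974 has 2889 bases, and the main one, ENSMUST00000105502, has 6848. The shorter held 15.8% to 19.6% of Foxo3 counts in BM-Treg, and 0%, 12.1%, 17.9% and 2.42% in SP-Treg replicates 1 to 4. The part of this estimated division in the Foxo3 FPKM was not tested. Foxo1 was the more abundant FOXO transcript per length in every library. The ratio of Foxo1 to Foxo3 FPKM within a library was 3.61, 3.48, 3.13 and 3.83 in BM-Treg and 4.79, 4.15, 4.59 and 4.89 in SP-Treg. The ratio was lower in every BM-Treg library than in any SP-Treg library. It was computed after the levels had been seen and carries no test. Of the other FOXO factors, Foxo4 had a CPM of 30.4 to 34.3 in BM-Treg and 23.8 to 34.1 in SP-Treg (log2 fold change 0.20, edgeR adjusted p = 0.389), and Foxo6 had no counts.

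Pik3ip1 encodes a membrane protein that binds PI3K and restrains it, and it is a known FOXO target. Its CPM was 30.6, 33.5, 35.1 and 25.8 in BM-Treg and 36.1, 37.4, 22.8 and 27.8 in SP-Treg. Each tissue had libraries at both high and low levels, and the SP-Treg range enclosed the BM-Treg range. For Pik3ip1 the log2 fold change was -0.01 (SE 0.16, 95% CI -0.34 to 0.33, edgeR adjusted p = 0.987), with a sign that changed with the normalization. Pik3ip1 lies at chr11:3330401-3342971, where Gm12592 overlaps it on the opposite strand with a CPM of 2.54 to 6.55. Gm12592 reaches only to chr11:3331178, so the genes share the first part of Pik3ip1. The sources used here do not say whether counting used strand, so that reads from this shared part cannot be told apart. Tsc1 encodes the scaffold of the TSC complex (chr2:28641228-28691167). Its CPM was 50.6, 52.6, 53.8 and 44.6 in BM-Treg and 49.9, 48.3, 44.7 and 41.8 in SP-Treg. BM-Treg replicate 4 fell within the SP-Treg range and the other 3 BM-Treg libraries lay above it. The log2 fold change of Tsc1 was 0.11 (SE 0.11, 95% CI -0.12 to 0.34, edgeR adjusted p = 0.593).

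Sesn1 encodes sestrin 1, one of the sestrins that bind GATOR2 and so hold back the activation of mTORC1 by amino acids, and it is a known target of FOXO factors and of p53. It lies at chr10:41810574-41908424. Sesn1 CPM was 183, 143, 146 and 152 in BM-Treg and 102, 113, 110.3 and 109 in SP-Treg. Every BM-Treg library lay above every SP-Treg library, and the 4 SP-Treg values were close together. Sesn1 was 1.42-fold higher in BM-Treg (log2 fold change 0.50, SE 0.11, 95% CI 0.28 to 0.73, edgeR adjusted p = 0.00881). An exact two-sided permutation test of log2 CPM gave p = 0.0286, the smallest that 4 against 4 libraries allow. Within batch 3, where BM-Treg has 1 library and no test can be made, the log2 difference was 0.49. With batch as a term the log2 fold change was 0.47 and was not called (edgeR adjusted p = 0.155). That term left 258 of the 13397 tested genes called, against 1172 without it. Sesn1 was called when any 1 library was left out (edgeR adjusted p from 0.0140 to 0.0213). SP-Treg replicate 1, with the lowest erythroid and B cell marker sums of the SP-Treg libraries, had the lowest Sesn1 CPM of all. In FPKM its Sesn1 level was 40.21, above SP-Treg replicates 3 (39.2) and 4 (39.98). The part of these markers in the Sesn1 level was not tested.

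The protein-coding transcripts of Sesn1 described here start at different places. The longer protein, of 551 residues, comes from ENSMUST00000099931, which starts upstream at chr10:41809935. The shorter, of 492 residues, comes from ENSMUST00000041438, which starts at chr10:41887439 in GENCODE M21. CPM of the 492-residue transcript was 148, 114, 115 and 114 in BM-Treg and 64.3, 90.4, 83.5 and 78.6 in SP-Treg. Again no SP-Treg library reached the BM-Treg range. Its log2 difference was 0.62 (95% CI 0.30 to 0.94), which was not called over all transcripts (edgeR adjusted p = 0.123, unadjusted p = 0.00190). CPM of the 551-residue transcript was 32.6, 28.5, 34.9 and 35.6 in BM-Treg and 39.7, 25.3, 24.7 and 29.5 in SP-Treg. These ranges overlapped, with the highest value in SP-Treg replicate 1 (log2 difference 0.14, 95% CI -0.26 to 0.53, edgeR adjusted p = 0.849). The 492-residue transcript made up 78.7% ± 2.72 of Sesn1 counts in BM-Treg and 72.5% ± 7.50 in SP-Treg (mean ± SD, n = 4), and these shares overlapped. The difference between the transcripts themselves was not tested, and RSEM's division of reads from shared exons is an estimate.

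Promoters of 300 bases, from 250 before to 50 after a gene's start, were read from RefSeq (GRCm38.p6) for 8 of the 9 genes. They were searched on both strands for the FOXO core, GTAAACA, whose reverse complement reads TGTTTAC. The E-box, CACGTG, a motif bound by MLX family factors among others, was searched for as well and does not overlap the first motif. The FOXO core was found in promoters of 2 genes, Sesn1 and Txnip, and is held by 3.65% of 32851 promoters of this length. The E-box was found in none of the 9 promoters of these genes and is held by 7.15% of all. Both Sesn1 promoters are shown because the transcript that starts at the downstream one had levels that did not overlap, while the FOXO core lies at the upstream one. Capitals mark the FOXO core, which spans bases 23 to 29 after the upstream RefSeq start, chr10:41810574. Neither Sesn1 transcript described above starts at this position in GENCODE M21. The transcript of the 551-residue protein starts further upstream, at chr10:41809935, outside the window shown. The downstream window holds no match. A match is a run of letters and not a binding site.
Sesn1 upstream promoter, chr10:41810324-41810623, plus strand: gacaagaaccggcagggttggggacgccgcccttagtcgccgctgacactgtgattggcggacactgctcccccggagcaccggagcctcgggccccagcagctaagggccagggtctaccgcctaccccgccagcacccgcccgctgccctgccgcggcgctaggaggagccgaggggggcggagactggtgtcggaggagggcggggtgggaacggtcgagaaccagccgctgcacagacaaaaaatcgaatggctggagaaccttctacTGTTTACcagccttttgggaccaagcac
Sesn1 downstream promoter, chr10:41887189-41887488, plus strand: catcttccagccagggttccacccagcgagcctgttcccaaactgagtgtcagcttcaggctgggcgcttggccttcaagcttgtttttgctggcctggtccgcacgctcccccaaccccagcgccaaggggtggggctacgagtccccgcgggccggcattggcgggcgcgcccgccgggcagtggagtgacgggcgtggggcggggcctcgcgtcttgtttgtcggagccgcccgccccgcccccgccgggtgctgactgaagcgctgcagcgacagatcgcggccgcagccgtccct

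**Figure D2:**
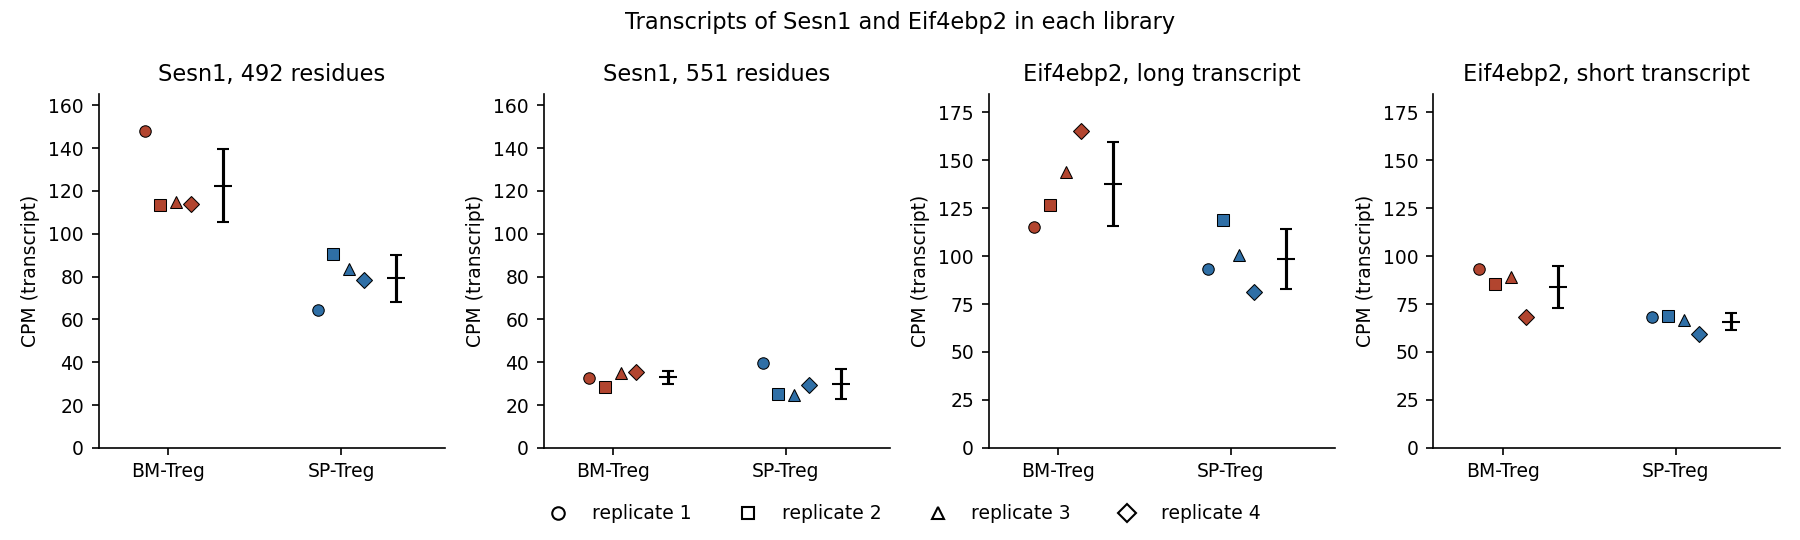
CPM (y axis, linear from 0) of the 2 transcripts of Sesn1, named by protein length, and of Eif4ebp2 (long, ENSMUST00000020288, and short, ENSMUST00000167087), in 4 BM-Treg (red) and 4 SP-Treg (blue) libraries, with mean ± SD at the side and the same axis for both transcripts of a gene. The 492-residue Sesn1 transcript is the one panel in which the tissues do not overlap.

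Sesn3 encodes sestrin 3, a relative of sestrin 1, and is a FOXO target (chr9:14276301-14326138). Its CPM was 47.8, 59.0, 50.3 and 34.1 in BM-Treg and 81.7, 73.9, 66.9 and 53.8 in SP-Treg. The direction was opposite to that of Sesn1, and 1 SP-Treg library, replicate 4, lay inside the BM-Treg range. The log2 fold change of Sesn3 was -0.55 (SE 0.16, 95% CI -0.89 to -0.20), just short of a call (edgeR adjusted p = 0.0510, exact two-sided permutation p = 0.0571). It was called in 6 of 17 alternative settings, among them without BM-Treg replicate 2 (edgeR adjusted p = 0.0366) and without SP-Treg replicate 4 (0.0247), whereas leaving out SP-Treg replicate 1 raised the adjusted p to 0.143. In batch 3 alone the log2 difference was -0.997, and BM-Treg replicate 4 had the lowest Sesn3 level. The FPKM ratio of Sesn1 to Sesn3 within a library was 3.06, 1.93, 2.30 and 3.52 in BM-Treg and 0.960, 1.22, 1.31 and 1.59 in SP-Treg. Sesn1 was thus the more abundant of the pair per length in every BM-Treg library and in 3 of 4 SP-Treg libraries, a ratio chosen after the values had been seen. Sesn2, the remaining sestrin, had a CPM of 5.04 to 7.73 in BM-Treg and 4.34 to 5.78 in SP-Treg (edgeR adjusted p = 0.607).

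Txnip encodes an arrestin domain protein that binds thioredoxin, lowers glucose uptake, and is induced by FOXO factors and by MLX and MLXIP. Its CPM was 299, 324, 288 and 236 in BM-Treg and 293, 235, 148 and 167 in SP-Treg. SP-Treg replicate 1 reached the BM-Treg levels, and replicates 3 and 4 lay well below every BM-Treg library. Txnip had a log2 fold change of 0.43 (SE 0.19, 95% CI 0.00 to 0.86, edgeR adjusted p = 0.214). Without SP-Treg replicate 1 it was 0.64 and was called (edgeR adjusted p = 0.0304), so that 1 library decided the call. Arrdc3 and Arrdc4, arrestin relatives of Txnip, were also highest among SP-Treg in replicate 1, at a CPM of 32.3 and 84.1. In FPKM, Arrdc2 was highest there too (1.78), while Arrdc1 (48.0) was lower than in SP-Treg replicate 4 (50.3). SP-Treg replicate 1 was also the SP-Treg library with the lowest erythroid marker sum (1.81 CPM), and the part of this in the Txnip level was not tested. An antisense gene, Gm15441, covers Txnip, with a CPM of 0.168 to 2.33, and again strand was not stated. The Txnip promoter holds the FOXO core on the plus strand, in capitals, from 121 to 115 bases before the start, and is shown as the other promoter with a match.
Txnip promoter, chr3:96557707-96558006, plus strand: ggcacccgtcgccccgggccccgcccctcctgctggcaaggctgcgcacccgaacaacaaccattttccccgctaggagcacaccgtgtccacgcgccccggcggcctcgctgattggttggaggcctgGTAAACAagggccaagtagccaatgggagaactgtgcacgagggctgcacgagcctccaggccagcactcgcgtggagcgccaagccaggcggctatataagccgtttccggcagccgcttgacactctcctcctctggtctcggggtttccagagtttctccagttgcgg

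Eif4ebp2 encodes 4E-BP2, which binds eIF4E and blocks cap-dependent translation until mTORC1 phosphorylates it. It lies on the minus strand at chr10:61432497-61452669. CPM of Eif4ebp2 was 211, 213, 227 and 237 in BM-Treg and 159, 184, 171 and 142 in SP-Treg. The lowest BM-Treg library stood above the highest SP-Treg library. Eif4ebp2 was 1.34-fold higher in BM-Treg (log2 fold change 0.42, SE 0.10, 95% CI 0.21 to 0.64, edgeR adjusted p = 0.0182, exact two-sided permutation p = 0.0286). In batch 3 alone the log2 difference was 0.54, and with batch as a term it was 0.52 and was not called (edgeR adjusted p = 0.0986). The call was kept without any 1 library (edgeR adjusted p from 0.0194 to 0.0474), although it did not pass a threshold of 0.01. SP-Treg replicate 1, in which erythroid and B cell markers were lowest, had an Eif4ebp2 level below every BM-Treg library. The part of these markers in the Eif4ebp2 level was not tested.

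Both annotated transcripts of Eif4ebp2 encode 120 residues. The log2 difference was 0.48 for ENSMUST00000020288 (95% CI 0.12 to 0.83, edgeR adjusted p = 0.264) and 0.34 for ENSMUST00000167087 (95% CI 0.08 to 0.60, edgeR adjusted p = 0.276). Both estimates had the direction of the gene, and CPM overlapped between the tissues for each. The first transcript held 61.9% ± 6.51 of Eif4ebp2 counts in BM-Treg and 59.7% ± 2.67 in SP-Treg (mean ± SD, n = 4). Of 38 transcripts listed for the 9 genes, 26 were tested and 0 were called by edgeR, against 0.146% of all tested transcripts called (0.0626% higher in BM-Treg), and limma-voom called 0. At an unadjusted p under 0.05 there were 5, of which 4 were higher in BM-Treg, against 11.8% of all tested transcripts. The promoter of Eif4ebp2, the other called gene, is shown for comparison and holds neither motif.
Eif4ebp2 promoter, chr10:61452620-61452919, minus strand: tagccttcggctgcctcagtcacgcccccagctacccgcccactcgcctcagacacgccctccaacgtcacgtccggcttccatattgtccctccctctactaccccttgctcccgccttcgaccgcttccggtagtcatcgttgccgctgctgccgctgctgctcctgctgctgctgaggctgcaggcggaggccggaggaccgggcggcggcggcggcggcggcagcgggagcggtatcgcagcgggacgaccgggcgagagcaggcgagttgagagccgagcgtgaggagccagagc

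Eif4ebp1 encodes 4E-BP1, the better known 4E-BP, and had the lowest FPKM of the 9 genes, at 0.260 to 6.14 (chr8:27260327-27275656). Rounded expected counts were 57, 65, 63 and 69 in BM-Treg and 22, 23, 3 and 22 in SP-Treg, or a CPM of 3.08, 3.03, 2.83 and 5.79 and of 1.59, 1.82, 0.248 and 1.59. All BM-Treg values lay above all SP-Treg values, with BM-Treg replicate 4 far above the other 3 and SP-Treg replicate 3 far below its group. Eif4ebp1 had a log2 fold change of 1.45 (SE 0.46, 95% CI 0.47 to 2.42), which was the highest of the 9 genes and was not called (edgeR adjusted p = 0.0648, exact two-sided permutation p = 0.0286). Without BM-Treg replicate 4 it was 1.15 (edgeR adjusted p = 0.173) and without SP-Treg replicate 3 it was 1.11 (edgeR adjusted p = 0.0844). DESeq2, limma-trend on log2(FPKM + 1) and the fit without a filter called it. Since 3 to 69 counts stood behind each value, Eif4ebp1 was measured less precisely than the other 8 genes.

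**Figure D3:**
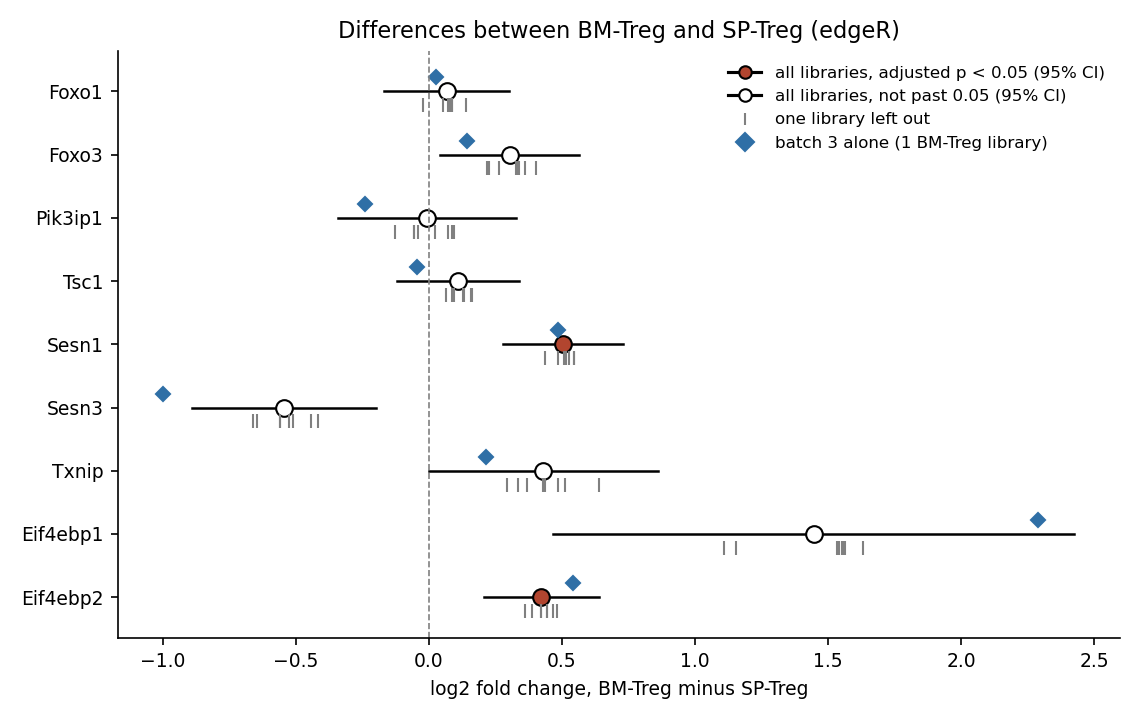
Log2 fold change (x axis, BM-Treg minus SP-Treg) of the 9 genes: circles with lines are edgeR estimates with 95% CI, filled where the adjusted p is under 0.05, grey ticks leave out 1 library each, and blue diamonds are batch 3 alone, where BM-Treg has 1 library. Sesn1 (0.50) and Eif4ebp2 (0.42) are filled, and Sesn3 (-0.55) is the one gene with its whole interval below 0.

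Translation genes around the 4E-BPs were read from the same fit. Of 13 tested genes of the eIF4F, 4E-BP and S6 kinase list that are not among the 9, 0 were higher and 2 were lower in BM-Treg, Eif4e and Eif4b, which is 15.4% of the list against 8.75% of all tested genes (5.02% lower). Eif4e encodes the cap-binding protein that 4E-BPs hold, and its CPM was 33.8, 37.1, 39.5 and 38.9 in BM-Treg and 60.2, 45.1, 56.4 and 59.8 in SP-Treg. It fell by 0.59 on the log2 scale (SE 0.12, edgeR adjusted p = 0.00647). Eif4b, a helper of the eIF4A helicase and a substrate of S6 kinase, fell by 0.49 (SE 0.10, edgeR adjusted p = 0.00516). With batch as a term neither Eif4e (edgeR adjusted p = 0.172) nor Eif4b (0.0899) was called, and limma-trend on FPKM with a pseudocount of 1 called neither (limma adjusted p = 0.0663 and 0.0570). The FPKM ratio of Eif4ebp2 to Eif4e was 11.5, 10.5, 10.4 and 10.8 in BM-Treg and 4.83, 7.34, 5.51 and 4.33 in SP-Treg. No SP-Treg library reached the BM-Treg range of this ratio, which was chosen after both genes had been seen to differ. It concerns RNA, and protein was not measured here.

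**Figure D4:**
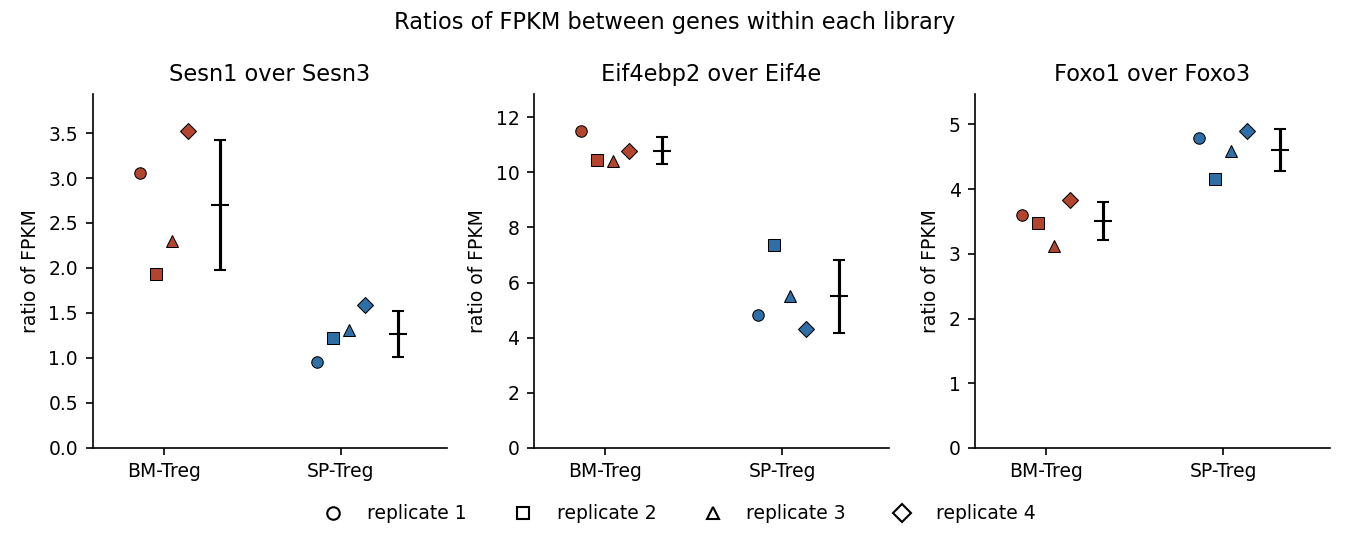
Ratios of FPKM within each library (y axis, linear from 0) for Sesn1 over Sesn3, Eif4ebp2 over Eif4e and Foxo1 over Foxo3 in 4 BM-Treg (red) and 4 SP-Treg (blue) libraries, with mean ± SD at the side. Ratios of the first and second pair are higher in every BM-Treg library, and those of the third are higher in every SP-Treg library.

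The remaining lists placed the 9 genes in their pathway. Of 18 tested FOXO target genes that are not among the 9, 3 were higher and 1 was lower in BM-Treg, 22.2% in all against 8.75% of all tested genes, with a median log2 fold change of 0.11. Il7r, the IL-7 receptor alpha chain, had a CPM of 571 to 627 in BM-Treg and 241 to 418 in SP-Treg (log2 fold change 0.82, edgeR adjusted p = 0.00218). Irs2, an adaptor between the insulin receptor and PI3K, rose by 0.97 (edgeR adjusted p = 0.00394), and Map1lc3b, an autophagosome protein, by 0.45 (edgeR adjusted p = 0.0161). Ccr7, the receptor that guides T cells into lymph nodes, had a CPM of 15.6 to 20.6 in BM-Treg and 25.6 to 67.2 in SP-Treg and fell by 1.30 (edgeR adjusted p = 0.0163). Il7r and Ccr7, both known FOXO1 targets in T cells, thus differed in opposite directions. Leaving out a library took away the Ccr7 call for BM-Treg replicates 1, 2 and 3 (edgeR adjusted p = 0.0612, 0.0582 and 0.0529) and the Map1lc3b call for BM-Treg replicate 3 (0.0550) and SP-Treg replicate 2 (0.0533). The Il7r and Irs2 calls held without any 1 library. With batch as a term Irs2 was called (edgeR adjusted p = 0.0179), and Il7r (0.0706), Map1lc3b (0.0987) and Ccr7 (0.277) were not.

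Upstream of FOXO and mTORC1, 0 of 8 tested class I PI3K subunits were called by edgeR, DESeq2 or limma-voom, and 1 had an unadjusted p under 0.05, Pik3r5 (log2 fold change 0.36, edgeR adjusted p = 0.206). Of 7 genes that oppose PI3K and AKT, 1 was called, the phosphatase gene Inpp4b, which fell by 0.41 (edgeR adjusted p = 0.0374), and this call was lost whichever library was left out (edgeR adjusted p from 0.0505 to 0.0848). Of 6 kinases of the AKT group, Sgk1 was called, with a CPM of 16.0 to 23.1 in BM-Treg and 8.82 to 13.1 in SP-Treg (log2 fold change 0.90, edgeR adjusted p = 0.00517). Sgk1 encodes a kinase that, like AKT, phosphorylates FOXO factors, and its call held without any 1 library and with batch as a term (edgeR adjusted p = 0.0377). Of 7 tested genes of the mTOR complexes, 0 were called by edgeR, DESeq2 or limma-voom and 2 had an unadjusted p under 0.05. The smallest adjusted p among them was that of Rheb, the GTPase on which the TSC complex acts (log2 fold change -0.37, edgeR adjusted p = 0.0912). Of 9 genes of the TSC complex and its inputs, edgeR and limma-voom called 0, DESeq2 called 1, and 1 had an unadjusted p under 0.05, Prkab1, an AMPK subunit (log2 fold change 0.39, edgeR adjusted p = 0.0517).

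Around the sestrins, edgeR and limma-voom called 0 of 14 other genes of the list of sestrins, GATOR and KICSTOR, DESeq2 called 2, and 4 had an unadjusted p under 0.05, 2 in each direction. The smallest adjusted p was that of Itfg2, a KICSTOR subunit (log2 fold change 0.58, edgeR adjusted p = 0.0664). Of 12 genes of the Rag, Ragulator and folliculin group, which bring mTORC1 to the lysosome, 2 were higher and 1 was lower. Lamtor4 rose by 0.62 (edgeR adjusted p = 0.0283), Flcn rose by 0.53 (edgeR adjusted p = 0.0380), and Rragd fell by 0.81 (edgeR adjusted p = 0.00261). Rragd was called without any 1 library, Lamtor4 in 3 of 8 and Flcn in 2 of 8 such fits, with adjusted p up to 0.0769 without BM-Treg replicate 4 for Lamtor4 and up to 0.102 without the same library for Flcn. With batch as a term Lamtor4 was called (edgeR adjusted p = 0.0289), and Rragd (0.0579) and Flcn (0.0729) were not. On FPKM with a pseudocount of 1 limma-trend likewise called Lamtor4 (limma adjusted p = 0.0266) and neither Rragd (0.0712) nor Flcn (0.0983). Among 10 relatives and partners of Txnip (arrestin domain, thioredoxin and MLX genes) edgeR and limma-voom called 0, DESeq2 called 1, and 2 had an unadjusted p under 0.05. The smallest adjusted p was that of Arrdc1 (log2 fold change 0.40, edgeR adjusted p = 0.0618). Over all lists, 6 of 105 tested genes were higher and 5 were lower, 10.5% in all against the 8.75% of all genes.

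**Figure D5:**
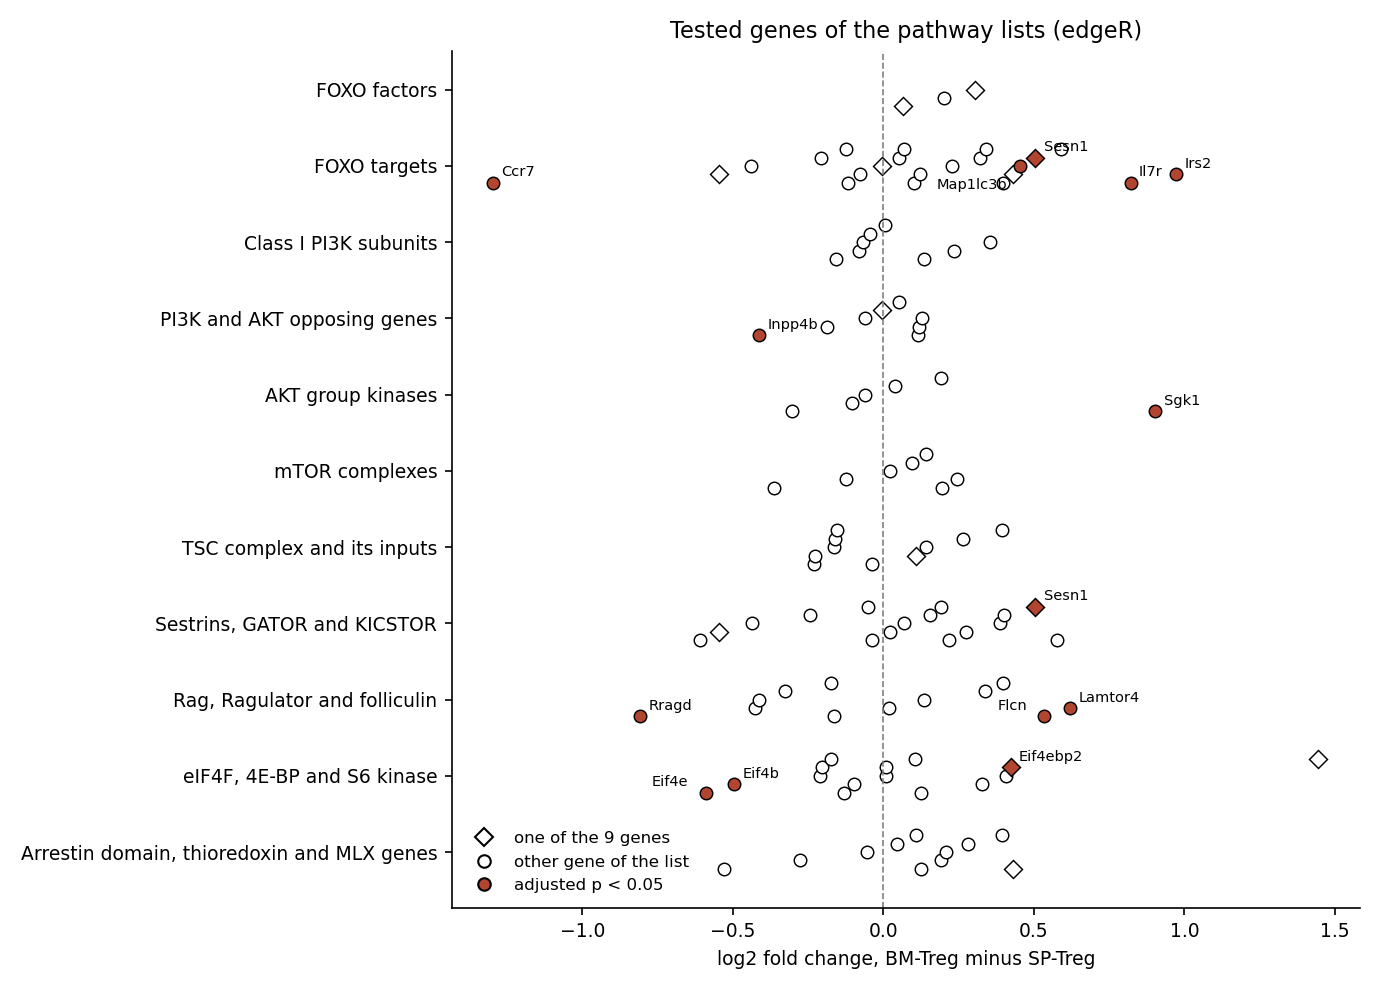
Log2 fold change (x axis, BM-Treg minus SP-Treg) of each tested gene of the 11 pathway lists (rows); diamonds are members of the 9 genes, circles other genes, and filled symbols have an edgeR adjusted p under 0.05, with their names. A gene can stand in more than 1 row, and filled symbols lie on both sides of 0.

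Genes whose log2 CPM followed that of the called genes most closely over the 8 libraries were looked up among 8554 genes whose mean log2 CPM was 3 or more. For Sesn1 these were Tinf2 (Pearson r 0.980), a subunit of the telomere shelterin complex, and Smg9 (0.976), a factor of nonsense-mediated decay. Tinf2 CPM was 19.9 to 24.0 in BM-Treg and 12.1 to 13.6 in SP-Treg, with BM-Treg replicate 1 highest as for Sesn1. For Eif4ebp2 they were BC037034 (0.989, the entry ENSMUSG00000091964 of a symbol that has more than 1 entry in the tables) and Glul (0.980), which encodes glutamine synthetase. Glul CPM was 72.8 to 90.1 in BM-Treg and 48.1 to 66.4 in SP-Treg. These values describe 8 libraries of 2 tissues that share the tissue difference itself and are given with no p.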

How the data were processed

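RNA from sorted FoxP3+ cells was amplified with the NuGEN single primer isothermal method, without molecular identifiers, and sequenced from a single end. The deposited tables hold expected counts for genes and for transcripts, which are RSEM-type estimates that can be fractional and carry no scaling between libraries, and FPKM values computed by the authors, in which counts are divided by transcript length and depth. The submitters' processing notes name cutadapt 1.9, STAR 2.5.2a, RSEM 1.2.30 and the GRCm38 genome without roles, and the sources used here do not state an annotation, the strand of counting, or a test for the RNAseq. Coordinates are those of the deposited tables, and 95.1% of gene identifiers were found in GENCODE M21, from which transcripts and overlapping genes were taken. Columns were matched to libraries by name, with 0 left unmatched.

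Expected counts were rounded. Low features were removed with filterByExpr, which left 13397 of 38215 genes and 28756 of 92351 transcripts. These were scaled by TMM and compared between tissues by edgeR's robust quasi-likelihood test, without covariates (R 4.3.3, edgeR 4.0.16, limma 3.58.1, DESeq2 1.42.0). Log2 CPM used a prior count of 2. Exact permutation tests were two-sided. Scripts were tested on simulated data. Library totals ran from 12427136 to 21921252, and no pair of libraries within a tissue was a duplicate (chi-square per degree of freedom 14.6 to 88.5). Pairs across the tissues were not compared.

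The 9 genes, the pathway lists and the rule for names were chosen with earlier results of these data known. Named genes were the 9, the called genes of the lists, the gene with the smallest adjusted p of a list without calls, the 2 genes closest in pattern to each called gene, and markers that moved with a result. Foxo6, Sesn2, Arrdc3, Arrdc4 and overlapping genes were added after values had been seen. Ratios between genes were also chosen then. Alternatives were other scalings, tests, filters and units, a batch term, batch 3 alone, a replicate block, leaving out each library, and a threshold of 0.01.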

Additional observations from a re-analysis of the deposited data

Results flagged for a closer look

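Eif4ebp1, the gene of 4E-BP1, was the one gene of the 9 with a library far from the others of its tissue, and this held in both tissues. In BM-Treg, replicate 4 had a CPM of 5.79 against 2.83 to 3.08 in the other 3 libraries, and the gap took up 0.882 of the range in log2 CPM. In SP-Treg, replicate 3 had a CPM of 0.248, from 3 counts, against 1.59 to 1.82 in the others, and the gap took up 0.925 of the range. Both gaps are past the critical value of Dixon's test at 95% for 4 libraries. Of 18 groups examined, 2 were past it, and chance flags about 5% of groups. BM-Treg replicate 4 is also the one BM-Treg library of batch 3, and its part in this level was not tested.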

How the results depend on the processing

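Sesn1 and Eif4ebp2 were called in 16 of 17 alternatives each (not with the batch term), Eif4ebp2 also not at a threshold of 0.01, and kept their direction in all 17. Of the 9 genes, 2 were called. DESeq2 and the fit without a filter called 4 (Sesn3 and Eif4ebp1 were added). The batch term, whose estimate rests on BM-Treg replicate 4, called 1 (Sesn3, log2 fold change -1.03, edgeR adjusted p = 0.0377). Calls over all 13397 tested genes moved too, from 1172 in the main fit to 1703 by DESeq2 and 258 with the batch term. They were 1326 of 23091 without a filter, 427 at a threshold of 0.01, and 690 to 1048 without 1 library. Leaving out a library gave 2 to 3 of the 9 genes. Of the other pathway genes, 11 were called, and 18 by DESeq2, 7 by limma-trend with FPKM and a pseudocount of 1 and 7 with a pseudocount of 0.1 (6 higher and 1 lower in both, against 6 and 5), 6 at a threshold of 0.01, 4 with the batch term (Irs2, Sgk1, Inpp4b and Lamtor4), and 7 to 10 without 1 library (7 without BM-Treg replicate 2 and 7 without BM-Treg replicate 3). Over all genes the higher share of calls was 42.6%, and on FPKM it was 62.7% of 727 calls and 62.2% of 701 calls. At least 10 counts in every library left Eif4ebp1 untested and called 1 transcript, ENSMUST00000041438 of Sesn1. The sign changed in 3 genes that were never called. Pik3ip1 (-0.01) became 0.00078 with DESeq2's size factors, 0.00054 with DESeq2, 0.024 with limma-voom, 0.14 and 0.15 on FPKM, 0.012 without a filter, 0.024 with the strict filter, 0.0078 with the replicate block, and 0.024, 0.073, 0.085 and 0.096 without BM-Treg replicates 1 and 4 and SP-Treg replicates 1 and 2, with a range of -0.13 to 0.096 when 1 library was left out. Tsc1 became -0.064 with the batch term and Foxo1 -0.020 without SP-Treg replicate 4. The cause of these shifts was not tested. The replicate block called 3 of the 9 genes (Sesn3 was added) and 12 other pathway genes, and replicate numbers did not pair the libraries, since deviations of same-numbered libraries correlated at -0.107, 0.0596, -0.176 and 0.0398 and 2 of 4 matched best by number. Depth limits Eif4ebp1 most, and intervals cover the spread between libraries only.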
